A study of Mus musculus with 4 samples.

Results

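The 10 genes described here encode the enzymes that write, copy and oxidise methylated cytosine in DNA, and the proteins that shield maternal imprints: Dnmt1, Uhrf1, Dnmt3a, Dnmt3b, Dnmt3l, Tet1, Tet3, Dppa3, Zfp57 and Trim28. They were picked by name from 23309 gene symbols, and each was found on 1 row in every file. Their mRNA was measured by paired-end sequencing in 4 libraries of oocytes from ICR mice, each made from 60 cells lysed together. The females were 21 to 23 days old, and the protocols name the hormones PMSG and hCG without saying which library received which. The groups, with 1 library each, were wild-type oocytes at the germinal vesicle (GV) stage, wild-type oocytes at metaphase II (MII), Erk-/- oocytes at GV and Erk-/- oocytes at MII. Neither the ERK gene nor the exons removed in Erk-/- are named in the labels, nor is what drives the deletion. The treatment text names Btg4-/- in place of Erk-/- females, and the design text speaks of an oocyte per library.

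DNA methyltransferase 1 copies methylation to the new strand after replication, and UHRF1 brings it to hemimethylated sites. DNMT3A, with its catalytically inactive partner DNMT3L, sets the methylation pattern of the growing oocyte, including its imprints. After fertilisation TET3, carried in by the egg, oxidises 5-methylcytosine, while DPPA3 (also called STELLA), ZFP57 and TRIM28 keep methylation at maternal and imprinted sequences. Fully grown oocytes are almost silent in transcription, so the mRNA they hold at MII is largely what was stored earlier. The title of the series names the loss of maternal mRNA in oocytes lacking ERK as its subject.

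Values are FPKM, fragments per kilobase of transcript scaled to the library's total, with the authors' lower and upper bound in brackets where the value lies inside them. That held for 31 of the 40 member values. For all 4 Dppa3 values, the GV values of Dnmt1, the MII values of Trim28 and the wild-type MII value of Tet3 it did not, and no bounds are given there. FPKM is a share of each library, so less mRNA of a gene per oocyte and more of everything else cannot be told apart. With 1 library per group there is no replicate error and no test, and the bounds cover uncertainty within a library only. How often bounds lay apart between libraries over all genes was not counted. Ratios are called higher or lower at 2-fold on the log2(FPKM + 1) scale, a rule of size which understates the change of low genes. The 4 libraries averaged 1 FPKM or more for 9990 genes, and 9 of the 10 members were among them.

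Summed FPKM ranged from 401160.4 to 453226 over the libraries. Wild-type MII had the fewest genes at 10 FPKM or more, 3570 beside 4397 to 5682 in the others. Its scaling factor, set by the middle gene ratio, was also the lowest, 0.694 beside 1.005 to 1.236. Genes at large thus stood low in that library. All 12 oocyte markers were at or above 1 FPKM in every library. Of 15 granulosa and cumulus markers 10 to 12 were listed at 0, among them Amh, Foxl2, Fshr and Inhba in all 4 libraries. The summed level of the 15 was 14.6 to 29.4 FPKM, and some were detected. Cyp19a1 was at 15.5 FPKM at GV and 21.8 at MII for wild type, and at 0 and 10.8 under the Erk-/- label. Nr5a2 was at 6.84 and 2.24 for wild type, and at 17.0 and 1.20 under that label, with stages ordered likewise. Inha reached 3.80 and 11.3 FPKM in the GV libraries (wild type first). Of 12 markers of other ovarian and blood cells 9 to 11 were listed at 0, with a sum of 25.6 to 77.8 FPKM that came mostly from Pecam1. Mapk3, which encodes ERK1, was at 333 FPKM in wild type and 52.3 (44.3 to 54.5) in Erk-/- before maturation, but at 25.7 (21.5 to 27.2) in wild type and 34.3 (28.9 to 35.4) in Erk-/- afterwards. Because that gene was not lower there, the last group is called by its label, and each direction drawn from it rests on its label.

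The maintenance pair was abundant at GV. Dnmt1 (chromosome 9, 20711650 to 20764332, build mm9 as for all positions here) measured 861 FPKM at GV and 127 (125 to 132) at MII in wild type, against 868 and 229 (227 to 237) in the Erk-/- pair of libraries. Both GV libraries were high and nearly equal, both MII libraries were low, and the wild-type MII library was the lowest. The files list 3 groups of start sites for Dnmt1 under a single value, so the oocyte-specific and the somatic form are not separated. Uhrf1 (chromosome 17, 56442760 to 56462909) went from 483 (478 to 499) to 159 (155 to 166) between GV and MII in wild type, and from 392 (383 to 406) to 478 (472 to 494) in the Erk-/- pair. Here a single library, wild-type MII, stood low, and it is the library in which genes at large stood low. Whether the low Uhrf1 value follows from that was not tested.

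Of the enzymes that set new methylation, the cofactor was the most abundant. Dnmt3l (chromosome 10, 77505032 to 77526360) had GV levels of 161 FPKM (155 to 169) in wild type and 134 (126 to 142) in Erk-/-, with MII levels of 28.0 (25.3 to 30.7) and 132 (125 to 139). As with Uhrf1, wild-type MII alone was low. Dnmt3a (chromosome 12, 3806980 to 3914443) had GV levels of 30.1 (29.0 to 31.7) in wild type and 23.8 (22.4 to 25.2) in Erk-/-, with MII levels of 8.30 (7.66 to 8.95) and 10.2 (9.43 to 10.9). It followed stage, with both MII libraries under both GV libraries. Dnmt3b (chromosome 2, 153475185 to 153513466), the methyltransferase best known from the early embryo, had GV levels of 3.19 (2.58 to 3.80) in wild type and 1.72 (1.16 to 2.30) in Erk-/-, with MII levels of 7.70 (6.79 to 8.62) and 8.42 (7.48 to 9.38). Dnmt3b was thus a low gene whose MII values lay above its GV values. Antisense genes of Dnmt3a and Dnmt3b are annotated, and the labels do not say whether the libraries kept strand, so reads from them cannot be told apart.

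Of the oxidising enzymes, Tet3 (chromosome 6, 83312368 to 83391672) was the one detected at more than trace level. Its GV levels were 21.1 FPKM (20.1 to 22.1) in wild type and 19.1 (18.0 to 20.1) in Erk-/-, and its MII levels 395 and 224 (218 to 226). Both MII libraries were far above both GV libraries, whose bounds overlapped slightly. Tet1 (chromosome 10, 62267318 to 62342762), an enzyme known from stem cells and primordial germ cells, was at 0.0197 (0 to 0.0460) for wild type and 0.00841 (0 to 0.0337) for Erk-/- before maturation, and afterwards was listed at 0 for wild type and at 0.00652 (0 to 0.0261) for Erk-/-. Every lower bound was 0, so no ratio is drawn from it. Tet2, which is no member, was listed at 0 in all 4 libraries.

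The protectors held the most abundant mRNA of the 10, and a pair with opposite stage differences. Dppa3 (chromosome 6, 122576442 to 122580289) had GV levels of 1265 FPKM in wild type and 1054 in Erk-/-, with MII levels of 1391 and 1339. By value it ranked first among the members in each library and between 23 and 33 among all genes. All 4 Dppa3 values lie above their own upper bounds. In Erk-/- GV the upper bound of Dppa3 lies under the lower bound of Zfp57, so first place there rests on the value alone. Zfp57 (chromosome 17, 37138108 to 37147674), the zinc-finger protein that recognises methylated imprint control regions, went from 848 (841 to 877) to 131 (124 to 138) with maturation in wild type, and from 1042 (1033 to 1077) to 313 (305 to 326) in the Erk-/- pair. Its co-repressor gene Trim28 (chromosome 7, 13609501 to 13616381) went from 123 (114 to 124) to 287 in wild type and from 129.9 (119 to 130.2) to 253 in the Erk-/- pair. Zfp57 was therefore low where Trim28 was high, in both genotypes.

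**Figure D1:**
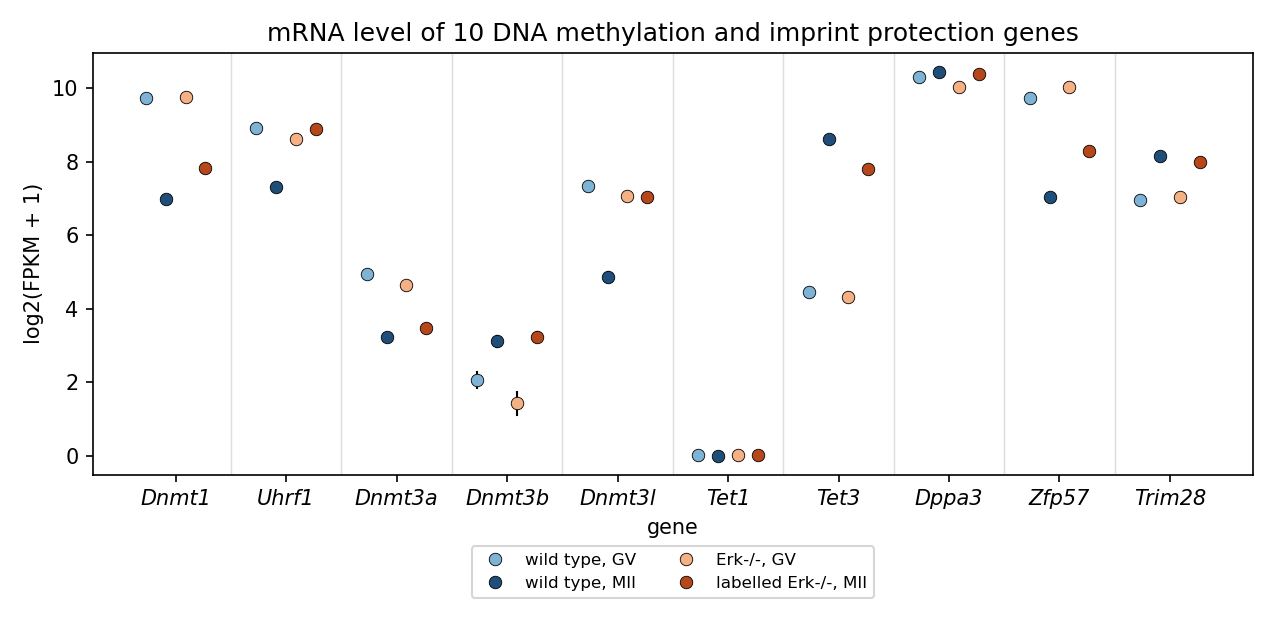
Level of each of the 10 genes as log2(FPKM + 1) in the 4 libraries, 1 point per library, with a vertical line from the authors' lower to upper bound (mostly hidden by the point) where the value lies inside them. Dppa3 sits between 1054 and 1391 FPKM in every library, Tet3 is high in both MII libraries, and Uhrf1 and Dnmt3l are low in wild-type MII alone.

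The order of levels within a library changed with stage. In wild-type GV it ran Dppa3, Dnmt1, Zfp57, Uhrf1, Dnmt3l, Trim28, Dnmt3a, Tet3, Dnmt3b and Tet1, and the neighbours Dnmt1 and Zfp57 differed by 1.02-fold. In wild-type MII it ran Dppa3, Tet3, Trim28, Uhrf1, Zfp57, Dnmt1, Dnmt3l, Dnmt3a, Dnmt3b and Tet1, where the bounds of Zfp57 and Dnmt1 overlapped, as did those of Dnmt3a and Dnmt3b. Tet3 moved from the rank of 8 to that of 2, and Dnmt1 from 2 to 6. In Erk-/- GV the bounds of Dnmt3l and Trim28 overlapped and Dppa3 and Zfp57 differed by 1.01-fold. In the MII library labelled Erk-/-, Uhrf1 ranked 2, and Dnmt1 and Tet3 stood next to each other at 1.02-fold. The 10 genes together took 0.838% (wild type) and 0.870% (Erk-/-) of summed FPKM at GV, and 0.632% and 0.721% at MII.

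Stored mRNAs of the oocyte carry signals near their 3′ end, where the cytoplasmic polyadenylation element lies close to the hexamer that directs cleavage and poly(A) addition. The last 100 bases of 1 annotated transcript per gene (GENCODE M21, build GRCm38) were searched on the mRNA strand for the element as TTTTAT or TTTTAAT and for the hexamer as AATAAA or ATTAAA. All 10 members matched a transcript. The element was present in 4 of them (Dnmt1, Dnmt3a, Tet1 and Tet3), against 17.9% of 19783 genes with a usable transcript. The hexamer was present in 9, against 78.3%. Among the 8760 of these genes averaging 1 FPKM or more, a level Tet1 did not reach, the shares were 20.6% and 82.0%. The 30-base sites below show the members with the largest stage difference in each direction (Tet3, Dnmt1, Zfp57), Dnmt3a as the other detected carrier of the element, and Dppa3 and Trim28 as abundant mRNAs without it, with matches to either motif in capitals.
Tet3: tgTTTTAATAAATTTTATatttattttttg
Dnmt1: gacttgatgtagTTTTATatgttgtaatat
Dnmt3a: tgtttatatataTTTTATtttcgctataaa
Zfp57: cccaccccacaaAATAAAtacaatttttaa
Dppa3: ccagaaatttgtAATAAAagcatttttgtt
Trim28: ttctgtggatttAATAAAaacttcactgag
In the Tet3 tail 2 matches of the element flank the hexamer, and the first overlaps it. In Dnmt1 and Dnmt3a the single match starts 26 and 27 bases ahead of the hexamer, which lies beyond the bases shown for each. Carriers of the element thus include the member with the highest (Tet3) and the member with the lowest (Dnmt1) wild-type ratio of MII to GV. Over these 8760 genes, the median wild-type log2 ratio of MII to GV was 0.25 in 1805 genes with the element and -1.28 in 6955 without it. In the Erk-/- pair of libraries the medians were 0.35 and -0.39. These are matches of letters in an annotated end, and which ends the oocytes used cannot be read from gene-level values.

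Wild-type MII against wild-type GV compares the share that each of these mRNAs takes of its library before and after maturation. Dnmt1, Uhrf1, Dnmt3a, Dnmt3l and Zfp57 were lower at MII, while Tet3, Trim28 and Dnmt3b were higher and Dppa3 was level. Of the 9 members compared, 5 were at least 2-fold lower, where 49.6% of all 9990 genes were, and 3 were at least 2-fold higher, where 20.6% were. Among the 5294 genes averaging 10 FPKM or more, 48.2% were lower and 23.0% higher. The members' median log2 ratio was -1.60, beside -0.97 over all genes. Dnmt1 stood at 14.7% of its GV level (log2 ratio -2.75), Zfp57 at 15.4% (-2.69), Dnmt3l at 17.4% (-2.48), Dnmt3a at 27.6% (-1.74) and Uhrf1 at 32.9% (-1.60). The bounds of the 2 stages lay apart for Zfp57, Dnmt3l, Dnmt3a and Uhrf1.

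In the other direction Tet3 was 18.7-fold higher (log2 ratio 4.16), Dnmt3b 2.42-fold (1.06) and Trim28 2.33-fold (1.21), or 33.4-fold, 4.31-fold and 4.14-fold under the scaling described next, and Dppa3 was at 109.9% of its GV level. Median-of-ratios scaling, which sets the middle gene ratio of each library equal, shifted the all-gene median by 0.67 and left 3 members lower in place of 5. Under it 29.8% of all genes were higher and 40.6% lower, so 42.3% of the called genes were higher, against 29.3% as deposited. Uhrf1 (-0.77) and Dnmt3a (-0.97) no longer reached 2-fold under that scaling, and Dppa3 stood 1.96-fold higher, just short of it. Dnmt1 (-1.92), Zfp57 (-1.86) and Dnmt3l (-1.66) stayed past it. With the bounds set against the difference, Dnmt3b was at a log2 ratio of 0.70.

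The same step in the libraries labelled Erk-/- gave a different set. Dnmt1, Zfp57 and Dnmt3a were again lower at MII and Tet3 and Dnmt3b higher, but Uhrf1 and Dnmt3l were close to their GV levels. Of the 9 members, 3 were at least 2-fold lower, where 35.6% of all genes were, and 2 at least 2-fold higher, where 22.9% were. Among genes averaging 10 FPKM or more the shares were 35.0% and 22.1%. The members' median log2 ratio was 0.29, beside -0.26 over all genes. Dnmt1 stood at 26.4% of its GV level (log2 ratio -1.92), Dnmt3a at 42.7% (-1.15), and Zfp57 was 3.33-fold lower (-1.73). Tet3 was 11.7-fold higher (3.49) and Dnmt3b 4.89-fold (1.79).

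Uhrf1 was at 122% of its GV level with bounds apart, and Dnmt3l at 98.3% with bounds that overlapped, a direction that scaling turned (0.18). Dppa3 was at 127%. Trim28 was 1.95-fold higher, just under the rule, and passed it under scaling (1.17). Dnmt3a met the rule as deposited and was just outside it under scaling (-0.95).

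**Figure D2:**
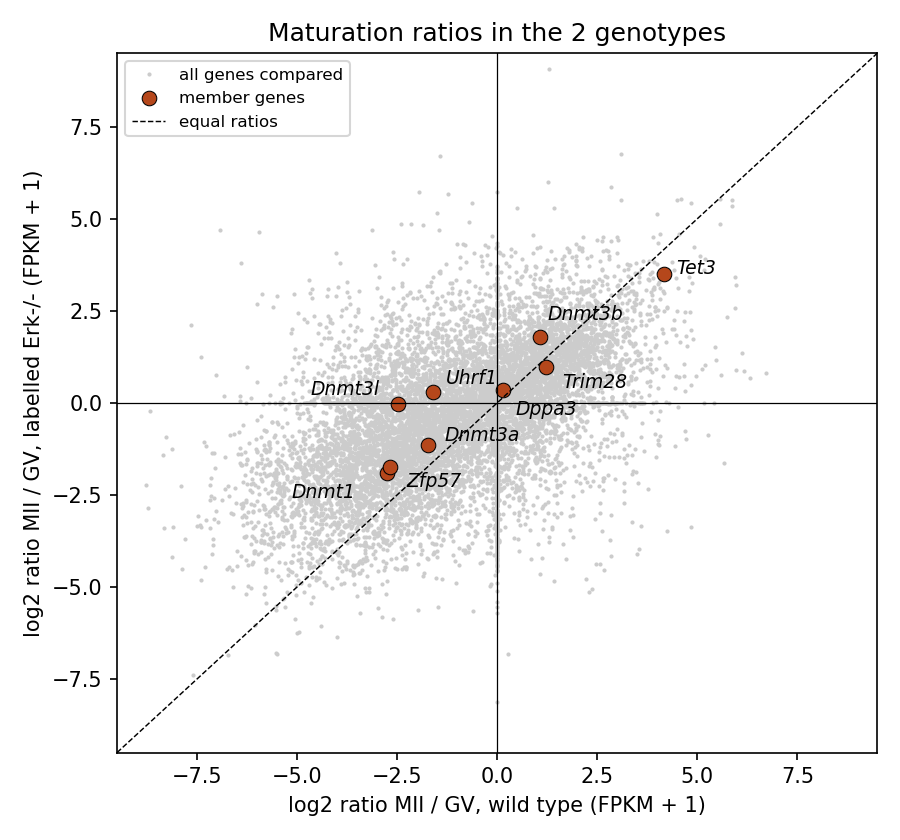
Log2 ratio of MII to GV on the FPKM + 1 scale in wild type (horizontal) and in the libraries labelled Erk-/- (vertical), with 9990 genes in grey, 9 members in colour and a dashed line of equal ratios. Dnmt1, Zfp57 and Dnmt3a lie in the lower left, Tet3 in the upper right, and Dnmt3l and Uhrf1 lie near 0 on the vertical axis while at -2.48 and -1.60 on the horizontal one.

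Before maturation the genotypes lay within 2-fold of each other in these genes, Dnmt3b being the furthest apart. In Erk-/- GV against wild-type GV, none of the 9 members was 2-fold apart, where 18.4% of all genes were higher and 22.9% lower. The median log2 ratio was -0.26, beside -0.06 over all genes. Dnmt1 was at 101% of wild type, Trim28 at 105%, Tet3 at 90.5% and Zfp57 at 123%. Dppa3 was at 83.3%, Dnmt3l at 83.2%, Uhrf1 at 81.1%, Dnmt3a at 79.0% and Dnmt3b at 54.1%. The bounds of Tet3 and of Trim28 overlapped between the genotypes, and those of Zfp57, Dnmt3l, Uhrf1, Dnmt3a and Dnmt3b did not. The share of all genes with bounds apart was not counted, so this does not mark the members out. Among genes averaging 10 FPKM or more, a level that 8 members reached, 12.2% were higher and 14.9% lower.

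At MII the genotypes differed in part of the group. Dnmt3l, Uhrf1 and Zfp57 were higher in the MII library labelled Erk-/- than in wild-type MII, and Tet3 had the lowest ratio. Of 9 members 3 were at least 2-fold higher, where 31.4% of all genes were, a share near the background. None was at least 2-fold lower, where 7.43% were. Among genes averaging 10 FPKM or more 33.1% were higher and 5.31% lower. The median log2 ratio of the members was 0.26, beside 0.31 over all genes. Dnmt3l stood at 469% of wild type (log2 ratio 2.19), Uhrf1 at 300.3% (1.58) and Zfp57 at 239% (1.25), each with bounds apart.

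Dnmt1 stood at 180.1% (0.84), below the rule, also with bounds apart. Tet3 was at 56.7% of wild type (-0.81), Trim28 at 88.2% (-0.18) and Dppa3 at 96.3% (-0.05). Scaling shifted the all-gene median by -0.31 at MII and changed several of these calls. Under it Zfp57 (0.72) fell short of 2-fold, Tet3 (-1.35) was past it, and Dnmt3a (0.26 as deposited) and Dnmt3b (0.11) turned to -0.22 and -0.37. Dnmt3l (1.67) and Uhrf1 (1.05) remained at least 2-fold higher. Of all called genes 80.9% were higher as deposited and 59.2% after scaling. Over all genes 25.1% were higher and 17.3% lower after scaling.

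**Figure D3:**
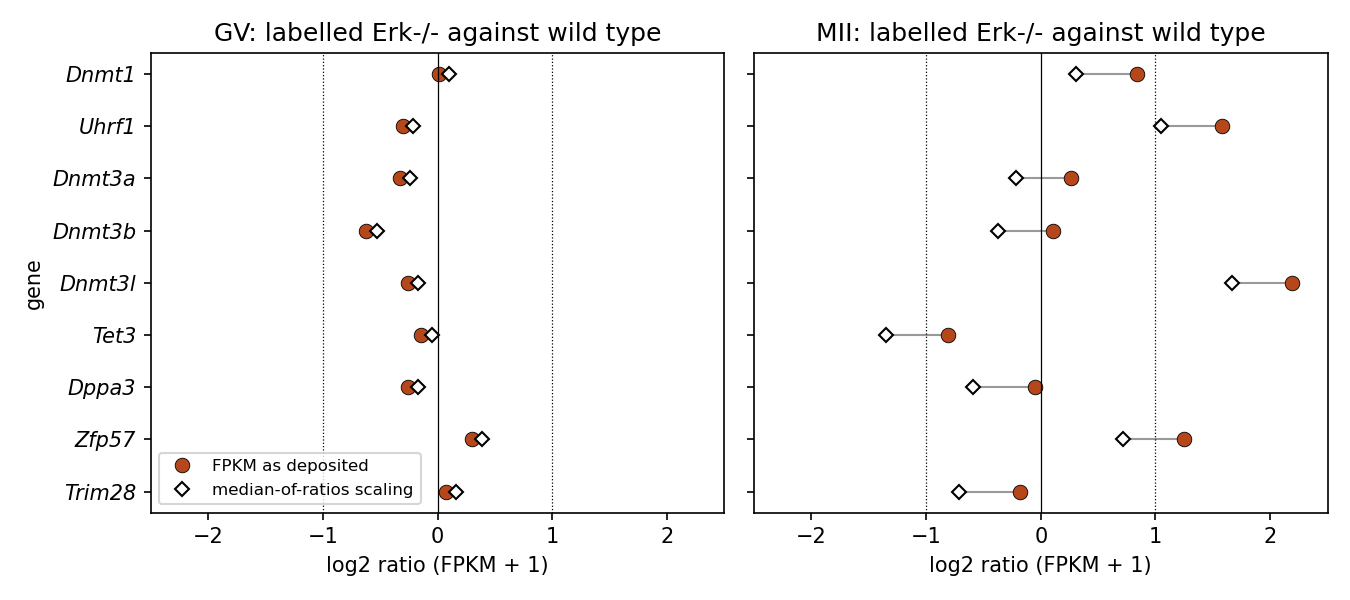
Log2 ratio of Erk-/- to wild type on the FPKM + 1 scale for 9 members at GV (left) and at MII (right), as filled circles for FPKM as deposited and open diamonds after median-of-ratios scaling, with dotted lines at 2-fold. All 9 lie inside the dotted lines at GV, and at MII Dnmt3l and Uhrf1 lie beyond the right one under both scalings.

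Taking the maturation ratio of the libraries labelled Erk-/- minus that of wild type, Dnmt3l (log2 difference 2.46) and Uhrf1 (1.88) were the 2 members past 2-fold, where 41.2% of all genes were above it and 18.8% below (39.1% and 14.0% among genes averaging 10 FPKM or more). Zfp57 (0.96), Dnmt1 (0.83), Dnmt3b (0.73), Dnmt3a (0.59) and Dppa3 (0.21) were positive and short of the rule, and Trim28 (-0.25) and Tet3 (-0.68) were negative. The median was 0.73, beside 0.59 over all genes. The all-gene median shifted by -0.48 under scaling, which brought Dnmt3l to 1.85 and Uhrf1 to 1.26, took Tet3 to -1.30 and Trim28 to -0.88, and turned Dppa3 to -0.42. It also brought Zfp57 to 0.33, Dnmt1 to 0.21, Dnmt3b to 0.16 and Dnmt3a to 0.02, and the members' median to 0.16, beside 0.11 over all genes. Scaling left 55.1% of the called genes positive, against 68.7%. Over all genes 32.9% were above 2-fold and 26.8% below after scaling. These 5 comparisons share libraries, so they are not independent of each other.

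Ratios between members within a library do not depend on how libraries are scaled, and FPKM allows them because it is per length. Dnmt1 mRNA was 40.9 times as abundant as Tet3 mRNA in the wild-type GV library and 45.5 times in its Erk-/- counterpart. At MII the ratio was 0.322 in wild type, where Tet3 was 3.11 times as abundant as Dnmt1, and 1.02 in the library labelled Erk-/-. The ratio of Zfp57 to Trim28, the binding protein and its co-repressor, went from 6.87 at GV to 0.455 at MII in wild type, and from 8.02 to 1.23 in the Erk-/- pair. Both ratios were high in the GV libraries, lowest in wild-type MII and in between in the MII library labelled Erk-/-.

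The pairs within the methyltransferase machinery behaved otherwise. Dnmt3l to Dnmt3a was 5.34 and 5.62 in the GV libraries (wild type first) and 3.37 and 12.9 in the MII libraries, the last being the highest of the 4. Dnmt1 to Uhrf1 was 1.78 and 2.21 at GV and 0.798 and 0.479 at MII, the last being the lowest. Dnmt3a to Dnmt3b was 9.46 and 13.8 at GV and 1.08 and 1.21 at MII, in the same order of genotypes. Dppa3 to Uhrf1, whose proteins are known to interact in the oocyte, was 2.62 and 2.69 at GV. At MII it was 2.80 in the library labelled Erk-/-, against 8.74 in wild type. Every Dppa3 value used in that ratio lies above its own upper bound.

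**Figure D4:**
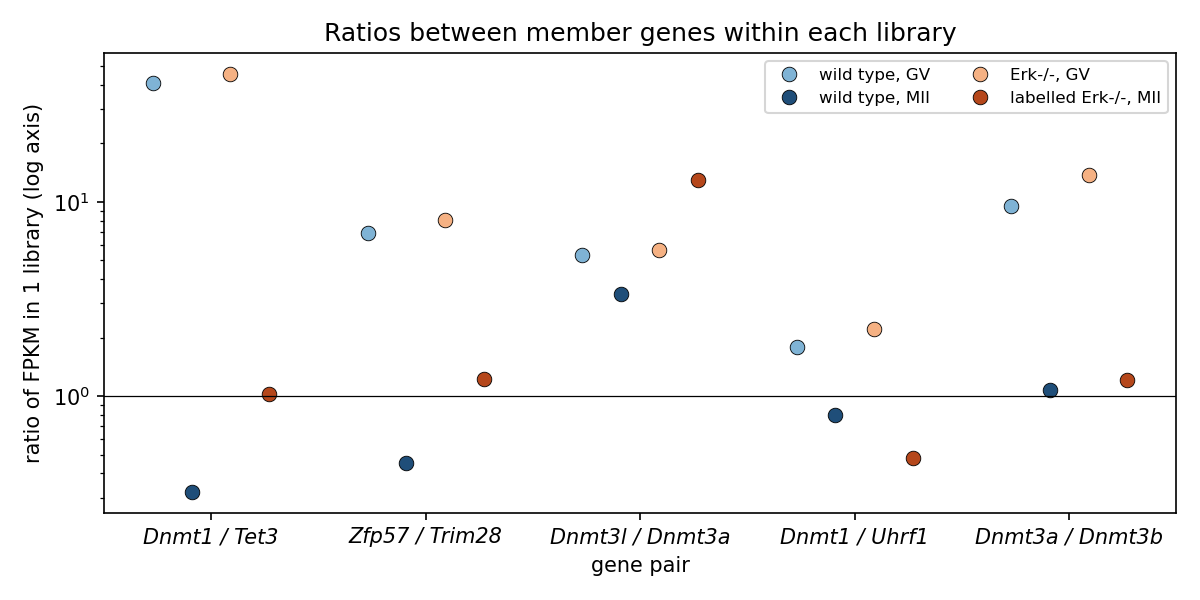
Ratio of FPKM between 2 member genes within 1 library (log axis) for 5 pairs and 4 libraries. Dnmt1 to Tet3 is 40.9 and 45.5 in the GV libraries and 0.322 and 1.02 in the MII libraries, and Dnmt3l to Dnmt3a is highest, at 12.9, in the MII library labelled Erk-/-.

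Among the members themselves, Dnmt1 and Zfp57 had the most similar profiles over the 4 libraries (root mean square difference of centred log2 values 0.187), followed by Dnmt3b and Trim28 (0.315) and Uhrf1 and Dnmt3l (0.368). Over 5277 genes averaging 10 FPKM or more on a single row, those nearest to Dnmt1 were Rnf168 (0.0548), Mrps25 (0.0599) and Ppp1r7 (0.0809). Among those near Dnmt3l were Ccdc61 (0.0839) and Pdia4 (0.0872). Tet3 was less closely matched, by Tcl1b3 (0.134), Foxn2 (0.144) and Taf4a (0.177), and Dppa3 was closest to Siah1a (0.0293), Ptpn21 (0.0346) and Unk (0.0477). With 4 points per gene these distances describe the libraries only.

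The 68 listed names of other genes in DNA methylation and its protection gave 66 genes, of which 56 reached the mean of 1 FPKM. Dcaf1 and Vprbp name the same gene, and Nlrp7 was not found. In wild type 20 of the 56 were at least 2-fold lower at MII (35.7%, beside 49.6% of all genes) and 16 higher (28.6%, beside 20.6%), with a median log2 ratio of -0.27, and 0.29 under scaling. Ahcy, which clears the by-product of methyl transfer, went from 47.2 to 0.0372 FPKM, and Mbd3, of the methyl-binding family, from 23.5 to 0.933. Mbd1, a reader of methylated DNA (15.7 FPKM at GV), and the zinc-finger gene Zfp42 (16.9) were listed at 0 in wild-type MII. Of 6 readers of methylation 4 were lower (66.7%, beside 49.6%) and 0 higher (beside 20.6%) in wild type. In the Erk-/- pair of libraries 2 were lower (33.3%, beside 35.6%) and 1 higher (16.7%, beside 22.9%). Of 7 genes listed under TET regulation 4 were higher (57.1%, beside 20.6%) and 0 lower (beside 49.6%) in wild type. The list was drawn up by name, and no effect of its genes on TET enzymes was tested. In the Erk-/- pair 2 were higher (28.6%, beside 22.9%) and 1 lower (14.3%, beside 35.6%). Every other sub-list had wild-type calls in both directions, such as 4 higher and 3 lower of 14 in imprint protection.

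In the libraries labelled Erk-/- 14 of the 56 were lower at MII (25.0%, beside 35.6% of all genes) and 17 higher (30.4%, beside 22.9%), with a median of 0.11. The repair endonuclease gene Apex1 went from 16.8 to 0.794 FPKM, Cdca7l from 19.8 to 2.70 and Idh1, a maker of the TET co-substrate, was 8.95-fold lower at 1.12. Mtr, the methionine synthase gene, went the other way, from 2.76 to 28.2. At GV 8 of the 56 were higher (14.3%, beside 18.4% of all genes) and 12 lower (21.4%, beside 22.9%) in Erk-/- than in wild type, both shares near the background. Examples were Cdca7 at 21.7 and 1.29 FPKM, Mbd3 at 89.6 and 23.5, Cbx3 at 10.4 and listed at 0, and Zfp42 listed at 0 and at 16.9. At MII 14 were higher (25.0%, beside 31.4%) and 4 lower (7.14%, beside 7.43%) in the library labelled Erk-/-, with a median of 0.06, and -0.40 under scaling. Mbd3 had 16.6 FPKM there and 0.933 in wild type, and Parp1, a DNA repair gene, had 15.7, or 7.86-fold its wild-type level. Idh1 had 1.12 and 22.1, and the DNA damage response gene Gadd45b 1.65 and 10.2. The difference of maturation ratios was positive by at least 2-fold in 18 (32.1%, beside 41.2%) and negative in 8 (14.3%, beside 18.8%), with 5.92 for Zfp42, -5.01 for Idh1, -4.43 for Cdca7 and -3.97 for Cbx3.

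The 35 listed names of imprinted genes stood for 34 genes, since Jade1 and Phf17 name the same gene. Of these 34 genes 13 reached a mean of 1 FPKM (38.2%, beside 42.9% of all genes). Of the 13, 4 were at least 2-fold lower at MII in wild type (30.8%, beside 49.6% of all genes) and 3 higher (23.1%, beside 20.6%). In the libraries labelled Erk-/- 7 were lower (53.8%, beside 35.6%) and 3 higher (23.1%, beside 22.9%). Gnas, which encodes a G-protein subunit, went from 443 to 6.49 FPKM with maturation in wild type and from 278 to 88.5 in the Erk-/- pair. Commd1 went from 168 to a listed 0, and from 115 to 10.2. In wild type Mest went from 44.6 to 159, and Igf2r, the receptor that clears IGF2, from 5.50 to 29.8. In the libraries labelled Erk-/-, Grb10 went from 3.93 to 21.3, Fkbp6 from 25.0 to 2.58 and Inpp5f from 10.9 to 1.86. Between genotypes 2 of the 13 were higher (15.4%, beside 18.4%) and 1 lower (7.69%, beside 22.9%) at GV, where Fkbp6 had 25.0 FPKM in Erk-/- and 0.0744 in wild type, and H13 had 30.5 and 68.5. At MII 5 were higher (38.5%, beside 31.4%) and 1 lower (7.69%, beside 7.43%). Snrpn had 15.1 FPKM under the Erk-/- label and 5.28 in wild type, while Kcnq1 (16.9 and 33.4) did not meet the rule. The lower gene was Snurf, named after its values were seen, with 2.36e-05 and 2.32 FPKM. Its locus overlaps that of Snrpn, so how reads were split between them is uncertain.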

How the data were processed

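The authors deposited 1 table per library with FPKM and a lower and an upper bound per gene, per the file headers. CASAVA 1.8, TopHat and build mm9 are named in the submitters' processing notes. How multi-mapping reads were treated, which program and annotation gave FPKM, and what confidence the bounds stand for is not given in the sources used here, and read depth is unknown. Each table held 23813 rows for 23309 symbols, and the 260 symbols on several rows were summed. Locus starts were raised by 1. Ratios were log2((FPKM + 1)/(FPKM + 1)) over the 9990 genes averaging 1 FPKM or more, called at 2-fold. Scaling factors came from 6967 of these genes above 0 in all libraries. Python 3.11.15, numpy 2.4.6 and pandas 2.3.3 were used, and the scaling and calls were tested on simulated data. Simulated data cannot show whether the scaling suits these libraries. Their calls for wild-type maturation were unbalanced, with 4952 genes down and 2054 up as deposited.

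The members and lists were chosen with earlier results of these data known. Besides the members, the text names Mapk3, markers of other cell types, up to 4 genes per list and comparison with the largest absolute ratio (at least 10 FPKM in a library compared), and the 3 nearest profiles of Dnmt1, Dnmt3l, Tet3 and Dppa3. Of these, 1 gene is not reported here. Tet2 and the within-library ratios were chosen after their values were seen, as were the 3′ end motifs. For these the transcript was the best-ranked protein-coding one (APPRIS, then length) with a 3′ UTR longer than the window. Alternatives were pseudocounts of 0.1 and none, scaling, filters of none and 10 FPKM, the highest row of a symbol, the bounds and a 1.5-fold rule.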

Additional observations from a re-analysis of the deposited data

Results flagged for a closer look

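Uhrf1 was lower at MII than at GV in wild type (log2 ratio -1.60) and higher in the libraries labelled Erk-/- (0.29), with bounds apart in both, a difference of 1.88. The genotype ratio lay on opposite sides of 0 at GV and at MII, with bounds apart at each stage, for Uhrf1 (-0.30 and 1.58, difference 1.88), Dnmt3l (-0.26 and 2.19, difference 2.46) and Dnmt3a (-0.33 and 0.26, difference 0.59). For Uhrf1 both differences of 1.88 are the same quantity. How many of all genes met these conditions was not counted. The all-gene median log2 ratios of genotype were -0.06 at GV and 0.31 at MII. The differences of the members were not tested, since each group is 1 library, and the MII value of Dnmt3a turned to -0.22 under median-of-ratios scaling.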

How the results depend on the processing

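Over the alternatives, 72 counts of members stayed within 1.5 times the count as reported and 8 did not. Taking the highest row of a symbol could change no count, since each member is on 1 row. Dropping the filter adds only Tet1, which was at trace level. The log2 ratios of members moved more: under median-of-ratios scaling 24 changed in size, 4 changed sign and 17 stayed close. Median-of-ratios scaling gave 3 members lower in wild-type maturation (5 as deposited), 1 lower at MII between genotypes and 1 lower in the difference of maturation ratios (none as deposited), Tet3 in both latter cases. Under scaling 40.6%, 17.3% and 26.8% of all genes were lower in these comparisons, against 49.6%, 7.43% and 18.8% as deposited. A 1.5-fold rule gave 1 lower at GV, 1 lower at MII, and 6 higher and 1 lower in the difference of ratios. The share of all genes past 1.5-fold was not computed, so these counts have no background beside them. In the difference of ratios the all-gene median was 0.59, and 41.2% of all genes were higher at 2-fold. An average of 10 FPKM or more, which Dnmt3b did not reach, left 1 higher in maturation of the libraries labelled Erk-/-. Signs turned under scaling for Dnmt3l in maturation of the libraries labelled Erk-/- (0.18), for Dnmt3a (-0.22) and Dnmt3b (-0.37) at MII, and for Dppa3 in the difference of ratios (-0.42). With the bounds set against the difference they turned for Dnmt3l in the same maturation step (0.14), Dnmt3b at MII (-0.18) and in the difference of ratios (-0.06), and Trim28 at GV (-0.05, from 0.07), while Tet3 at GV turned only within rounding of 0 (0.00). Apart from what scaling and bounds do by construction, the cause was not tested. No paired analysis was possible because each group has 1 library and the labels carry no replicate numbers. No library could be left out for the same reason, and without counts the depth behind each value is unknown.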
